A study of Mus musculus with 8 samples.

Results

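The genes described here encode the proteins of the cytosolic ribosome, measured in mouse embryos depleted of Smarca5 (also called Snf2h), the ATPase of ISWI chromatin remodelers. They were chosen by symbol, as protein-coding genes named Rpl or Rps with a number, Rplp0 to Rplp2, or Rpsa, without the S6 kinases and without pseudogene rows. Subunits were assigned by symbol, also for paralogs such as Rpl7l1. The rule took 86 genes, 52 of the large subunit, 33 of the small subunit and Rps19bp1, a binding partner of S19 that is no subunit of the ribosome. Of these, 85 were listed at each stage, and all 85 reached the minimum mean of 10 that 13404 of 19485 listed genes reached in morulae and 13651 of 20348 in blastocysts. The member without a row was Rpl3l, a paralog of Rpl3 known from muscle. The groups were Smarca5 knockdown (KD) morulae, NC morulae, KD blastocysts and NC blastocysts, each with 2 libraries, and each library was a pool of 20 embryos. The labels spell out neither NC nor the way the knockdown was done, and give no strain. Embryos were taken at embryonic days 3.75 and 4.25, and the labels do not say which day belongs to which stage. Separate litters or days are not stated for the 2 pools of a group, so the p-values rest on a spread between pools that may be only technical.

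Each ribosome holds 1 copy of nearly every ribosomal protein, so cells make these proteins in balanced amounts, and their mRNAs are among the most abundant of a growing cell. The mRNAs usually begin with a run of C and T letters in the DNA, the terminal oligopyrimidine tract, through which mTOR signalling and LARP1 control their translation. Proteins left without a partner are normally degraded, and free L5 and L11 bind MDM2 and so stabilise p53. In the preimplantation embryo, new ribosomes replace those inherited from the oocyte.

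Smarca5 itself had normalized abundances of 501 and 470.4 in KD morulae, against 9678 and 9760.5 in NC morulae. In blastocysts it had 906 and 855 in KD, against 6999.6 and 8283 in NC (limma adjusted p = 0.000188 in morulae and 0.000593 in blastocysts). Each KD library was thus far below both NC libraries of its stage. Summed trophectoderm markers were 31498 and 29989 in KD morulae, against 35871 and 32707 in NC morulae, with 4 of 8 markers lower in both KD libraries, where 21.2% of all tested genes were. In blastocysts the sum was 101314 and 114632 in KD, against 90663 and 89959 in NC, with 5 of 8 markers higher in both KD libraries, where 24.6% of tested genes were. The 6 epiblast markers summed to 29688 and 30729.6 in KD blastocysts, against 32867 and 35655 in NC blastocysts, with 5 of 6 lower in both KD libraries, where 24.9% of tested genes were. In morulae the epiblast sums overlapped, with 37283.6 and 35210.6 in KD, against 35212.5 and 38191.5 in NC. There 0 of 6 epiblast markers separated the groups in either direction, where 41.9% of tested genes did. Primitive endoderm markers summed to 16995 and 15712 in KD morulae, against 13818 and 14429 in NC morulae, with 4 of 6 tested markers higher in both KD libraries, where 20.7% of tested genes were. In blastocysts they summed to 22052 and 26864 in KD, against 21267 and 22524 in NC, so these sums overlapped. There 3 of 7 tested primitive endoderm markers were higher in both KD libraries, where 24.6% of tested genes were. The part of these shifts in the ribosomal protein results was not tested, and in pooled embryos fewer cells of a type and less RNA per cell cannot be told apart. Blood markers summed to at most 13.2 in a morula library and 180.6 in a blastocyst library, and none of that list was tested in morulae. The 12 cumulus, granulosa and stromal markers summed to 267 and 276 in KD morulae, against 85.3 and 186 in NC morulae, and to 152 and 391 in KD blastocysts, against 168 and 308 in NC blastocysts. Of them Fshr, Cyp19a1, Has2, Ptx3 and Tnfaip6 were at 0 or not listed at both stages, while Foxl2 had 109 and 77.1 in KD morulae, against 38.9 and 28.9 in NC morulae, and 63.9 and 42.6 in KD blastocysts, against 16.3 and 25.1 in NC blastocysts. Inhbb and Col1a1, the other tested markers of this list, overlapped between the groups at both stages. Their log2 fold changes were 1.30 and 1.40 in morulae, and -0.06 and -0.76 in blastocysts. Of 3 tested oviduct and uterine epithelium markers, Muc1 had 34.5 and 21.6 in KD morulae, against 4.2 and 5.5 in NC morulae. In blastocysts Muc1 had 35.6 and 74.1 in KD, against 34.9 and 17.7 in NC (limma adjusted p = 0.408 at both stages). Ovgp1 overlapped at both stages. Epcam overlapped in morulae and was higher in both KD libraries in blastocysts, with log2 fold changes of 0.17 and 0.17. The part of these lists in the results was not tested either.

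Ribosomal protein genes were expressed at high levels at both stages. The median member had a normalized abundance of 8573 in morulae and 9174 in blastocysts, where the median tested gene had 358 and 437. The lowest member lay above 51.9% of tested genes in morulae and above 60.4% in blastocysts. In blastocysts this was Rps12, whose row held 6.56% of the summed abundance of the gene and its near-identical copies, described further on. Divided by transcript length in kb, member levels ranged over 370.02 to 46162 in morulae and 347 to 54452 in blastocysts. Per kb, Rps2, a small-subunit protein near the mRNA entry channel, was highest at both stages. It was followed in morulae by the stalk protein gene Rplp1 (41438 per kb) and by Rpl13a (38768 per kb), a large-subunit gene whose protein is known in human cells also to silence some mRNAs. In blastocysts it was followed by Rpl41 (43236 per kb), which encodes the smallest ribosomal protein, and by Rpl13a (36925 per kb). Rpl5, Rpl22l1 and Rps19bp1 were lowest per kb at both stages. The median was 12453 per kb for the large and 13849 per kb for the small subunit in morulae, and 12312 and 14211 per kb in blastocysts. The 7 paralogs had a median of 2799.7 per kb in morulae and 2799.5 per kb in blastocysts. Lengths depend on the annotated transcript ends, and the value of Rpl5 is touched by a copy described further on. Levels of the 85 members in the 2 stages had a Spearman rho of 0.99, as a description across genes of separately scaled tables.

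The start regions of members whose values stand out are shown, with Rpl39 beside its paralog. They set a start without a long pyrimidine run nearby beside starts whose longest run lies before or across them. Each line gives 80 bases before to 20 bases after a RefSeq transcript start, on the strand of the gene, in GRCm38.p6, and capitals mark the longest run of at least 8 C or T letters within 30 bases of the start, and the motif CCGGAAG, which is bound by ETS family factors such as GABPA. The windows are chr17:46782637-46782736 on the minus strand for Rpl7l1, chr14:18270967-18271066 on the minus strand for Rpl15, chr16:10170148-10170247 on the plus strand for Rpl39l and chrX:37085203-37085302 on the minus strand for Rpl39.
Rpl7l1: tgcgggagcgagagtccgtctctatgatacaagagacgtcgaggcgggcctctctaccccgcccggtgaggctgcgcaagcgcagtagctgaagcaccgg
Rpl15: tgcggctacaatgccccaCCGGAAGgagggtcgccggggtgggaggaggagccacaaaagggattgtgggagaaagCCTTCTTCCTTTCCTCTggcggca
Rpl39l: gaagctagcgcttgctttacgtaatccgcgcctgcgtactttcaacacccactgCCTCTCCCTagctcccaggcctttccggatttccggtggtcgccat
Rpl39: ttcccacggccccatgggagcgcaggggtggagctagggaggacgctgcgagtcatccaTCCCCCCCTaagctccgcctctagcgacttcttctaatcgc
Within 30 bases of the start the longest C or T run had 17 letters in Rpl15, 9 in Rpl39l and 9 in Rpl39. The run of Rpl15 crosses the start, while those of Rpl39l and Rpl39 lie wholly before it. From these starts, the marked runs of Rpl39l and Rpl39 are thus not part of the mRNA. Rpl39 also has a shorter run of 8 letters after the start, which is unmarked because only the longest run is marked. In Rpl7l1 it had 5 letters within that distance, counting only the part of a run that lies inside it, so nothing is marked there. Windows of 250 bases before to 50 after the start were held for 66 member genes, 78 windows in all. A run of at least 8 C or T letters on the gene's strand within 30 bases of the start was found in 47.4% of member windows, against 21.5% of the windows of tested genes and 22.9% of all windows. Runs on either side of the start were counted, so these are not shares of mRNAs that begin with a terminal oligopyrimidine tract. CCGGAAG, searched on both strands, was found in 34.6% of member windows, against 16.9% for tested genes and 8.86% for all. AAGATGG, a core of the YY1 motif, was found in 15.4% of member windows, against 6.84% for tested genes and 6.34% for all, searched on both strands. GGGCGG, the core bound by SP1, was found on either strand in 60.3% of member windows, against 61.2% for tested genes and 35.7% for all. These are matches of letters and say nothing of binding.

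In morulae no ribosomal protein gene passed the test between KD and NC. The limma test on log2(abundance + 1) called 0 of 85 members at an adjusted p under 0.05, where it called 0.00746% of all 13404 tested genes, which was 1 gene. At an unadjusted p under 0.05 there were 2 members, Rpl7l1 and Rpl10, where 10.4% of all tested genes were under that limit. The mean was higher in KD for 64 members and lower for 21, where 49.2% of tested genes were higher. The median log2 fold change was 0.09 over the members and -0.01 over all tested genes. For 37 members both KD libraries lay above both NC libraries, against 20.7% of tested genes, for 3 they lay below, against 21.2% of tested genes, and for 45 the groups overlapped, where 41.9% of tested genes had no overlap in either direction. In the large subunit 40 of 51 genes were higher in KD, with a median of 0.10, and in the small subunit 24 of 33, with a median of 0.09.

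The 2 KD morula libraries were unlike each other in these genes. KD replicate 1 was the highest of the 4 morula libraries for 59 of 85 members, and its median deviation from the mean of the 4 libraries was 0.11 on the log2 scale. The median deviation was -0.01 in KD replicate 2, -0.07 in NC replicate 1 and -0.02 in NC replicate 2. NC replicate 1 was the lowest library for 46 members. KD replicate 1 lay above KD replicate 2 for 70 of 85 members. KD replicate 1 alone lay above both NC libraries for 65 members, and KD replicate 2 alone for 38, where 34.4% and 34.2% of tested genes did so. Members summed to 5.58% and 5.04% of the abundance in KD morulae, against 4.92% and 4.94% in NC morulae. Without KD replicate 1 the median over the members was 0.04 and 54 of 85 were higher, and without KD replicate 2 the median was 0.16 and 73 were higher. Large-subunit rows summed to 1.5002 and 1.45 times the small-subunit rows in KD morulae, against 1.48 and 1.49 times in NC morulae, so this ratio overlapped between the groups. In blastocysts it was 1.451 and 1.460 in KD, against 1.448 and 1.426 in NC, so both KD libraries were slightly higher there.

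**Figure D1:**
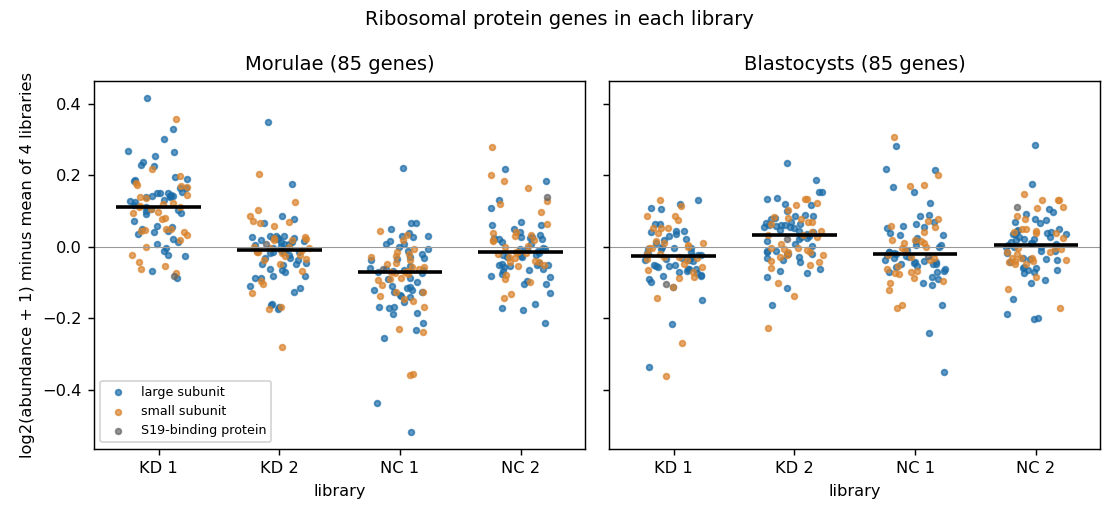
Each point is 1 of 85 ribosomal protein genes, as its log2(normalized abundance + 1) in a library minus its mean over the 4 libraries of that stage, and the black bars are medians over the genes. KD replicate 1 of the morulae has the highest median, 0.11, and NC replicate 1 the lowest, -0.07, while blastocyst medians lie between -0.03 and 0.03.

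In blastocysts no member passed the test either, and values lay on both sides of 0. Limma called 0 of 85 members, where it called 0.0879% of 13651 tested genes, which was 12 genes. At an unadjusted p under 0.05 there was 1 member, Rpl39l, where 17.6% of tested genes were under that limit. The mean was higher in KD for 44 members and lower for 41, where 50.3% of tested genes were higher. The median log2 fold change was 0.00 over members and 0.00 over all tested genes. Both medians are the value of 1 and the same gene, the large-subunit gene Rpl35a, which sits in the middle of both rankings. KD lay above NC without overlap for 16 members, against 24.6% of tested genes, and below for 14, against 24.9%, and the groups overlapped for 55, where 49.5% of tested genes had no overlap. In the large subunit 26 of 51 genes were higher in KD and in the small subunit 18 of 33. After quantile normalization the split was 31 higher and 54 lower, with a median of -0.02. Members summed to 4.72% and 4.89% of the abundance in KD blastocysts, against 4.81% and 4.86% in NC blastocysts.

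Members differed less between the groups than most genes did, and also less between replicates. The median absolute log2 fold change was 0.098 over members and 0.24 over all tested genes in morulae, and 0.060 and 0.24 in blastocysts. The median absolute log2 difference between the 2 KD replicates was 0.12 over members and 0.26 over all genes in morulae, and 0.078 and 0.21 in blastocysts. Between the 2 NC replicates it was 0.095 over members and 0.29 over all genes in morulae, and 0.088 and 0.22 in blastocysts. Members were far more abundant than the median gene, and the part of abundance in this was not tested.

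In the large subunit, the stalk genes had overlapping groups in morulae. The stalk, made of P0 with P1 and P2, recruits elongation factors. Rplp0, its base, had 25082 and 21075 in KD morulae, against 22502 and 21091 in NC morulae. Rplp1 had 19688 and 21093 in KD morulae, against 19679 and 22252 in NC morulae. Rplp2 had 10617 and 10535 in KD morulae, against 10356 and 10762 in NC morulae. In blastocysts Rplp2 had 9243 and 9039 in KD, against 10008 and 10082 in NC. Both KD libraries were lower there, but the difference of -0.14 did not pass (limma adjusted p = 0.404). Rplp0 and Rplp1 overlapped between the groups in blastocysts, with log2 fold changes of -0.02 and -0.02.

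Rpl5 and Rpl11 encode the pair of proteins that bind the smallest ribosomal RNA of the large subunit and, when free, MDM2. Rpl11 had 14548 and 13396 in KD morulae, against 12728 and 12544 in NC morulae, a log2 fold change of 0.14 (limma adjusted p = 0.683). In blastocysts it overlapped, with -0.03. The row of Rpl5 had 745 and 767 in KD morulae, against 746 and 769 in NC morulae, and the groups of this row overlapped at both stages. The row holds 4.18% of the abundance of Rpl5 and its near-identical copies in morulae. Summed with them, the family had 19795 and 17999 in KD morulae, against 17864 and 16821 in NC morulae, with both KD libraries higher and a log2 fold change of 0.12 (limma adjusted p = 0.735). In blastocysts the family overlapped, with -0.05.

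Rpl10, whose protein joins the large subunit late and lies near the peptidyl transferase centre, had 7575 and 7529 in KD morulae, against 5592 and 6209 in NC morulae. Both KD libraries were higher, with a log2 fold change of 0.36 ± 0.11 (SE), and the gene did not pass (limma adjusted p = 0.403). In blastocysts it had 8572 and 8265 in KD, against 6631 and 8025 in NC, a log2 fold change of 0.21 (limma adjusted p = 0.380). Rpl15, a core protein needed for large-subunit assembly, had 8621 and 6745 in KD morulae, against 6250.5 and 6092 in NC morulae. Its log2 fold change was 0.31 ± 0.14 (SE; limma adjusted p = 0.535), and KD replicate 1 was well above the other 3 libraries. In blastocysts Rpl15 had 7239 and 8278 in KD, against 6746 and 6922 in NC, a log2 fold change of 0.18 (limma adjusted p = 0.380). The large-subunit genes Rpl7a and Rpl32 had log2 fold changes of 0.23 and 0.22 in morulae, with both KD libraries above NC and adjusted p of 0.562 and 0.567 in limma. In blastocysts Rpl28, Rpl13a and Rpl17 had log2 fold changes of 0.16, 0.14 and 0.14 with both KD libraries above NC, and limma adjusted p of 0.356 to 0.422. Rpl30 had 6592 and 6389.8 in KD blastocysts, against 7703 and 7098 in NC blastocysts, a log2 fold change of -0.19 (limma adjusted p = 0.315).

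In the small subunit, the lowest log2 fold change in morulae was that of Rps21, which encodes one of the shorter small-subunit proteins. It had 4956 and 4599 in KD morulae, against 5285 and 5938 in NC morulae, a log2 fold change of -0.23 (limma adjusted p = 0.571). Both KD libraries were below both NC libraries, and in blastocysts the groups overlapped with -0.03. Rps28 had both KD libraries below NC at both stages, with log2 fold changes of -0.09 in morulae and -0.17 in blastocysts (limma adjusted p = 0.832 and 0.415). Rps6, the S6 kinase substrate, had 16508 and 14411 in KD morulae, against 13887 and 13714 in NC morulae. In blastocysts Rps6 had 15254 and 15588 in KD, against 14119 and 14536 in NC. Its log2 fold changes were 0.16 and 0.11 (limma adjusted p = 0.673 and 0.493), with KD above NC at both stages in this row. The row held 75.2% of the abundance of Rps6 and its near-identical copies in morulae and 73.4% in blastocysts. Summed with them, Rps6 had 21447 and 19023 in KD morulae, against 19773 and 17621 in NC morulae. In blastocysts the sum had 20100 and 21121 in KD, against 18842 and 20970 in NC. The summed groups overlapped at both stages, with log2 fold changes of 0.11 and 0.05. Rps19, a gene mutated in Diamond-Blackfan anaemia, had 8486 and 8379.6 in KD morulae, against 6615 and 7881 in NC morulae, a log2 fold change of 0.22 (limma adjusted p = 0.592). Rps27a, made as a fusion with ubiquitin, had log2 fold changes of 0.14 in morulae and 0.04 in blastocysts. Rpsa, also known as the laminin receptor, had 0.14 in morulae and -0.14 in blastocysts, where both KD libraries of its row were below NC (limma adjusted p = 0.447). Summed with its near-identical copies, Rpsa had 24197 and 24584 in KD blastocysts, against 23774 and 24704 in NC blastocysts, which overlap, with a log2 fold change of 0.01. Rps18 had 7517 and 7554 in KD morulae, against 7491 and 8460.4 in NC morulae, and its groups overlapped at both stages. Rps19bp1 overlapped at both stages, with -0.08 and -0.08.

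At each stage the largest absolute log2 fold change among members was that of a paralog, here a gene named after a subunit gene that it resembles. Paralogs were counted with the subunit of their name, and whether their proteins are part of ribosomes was not tested. Of 7 measured paralogs, 3 were higher in KD in morulae and 3 in blastocysts. Rpl7l1 (mm10 chr17:46773907-46782672), which is related to Rpl7 and shares 54.4% of aligned coding bases with it, had the largest log2 fold change of all members in morulae. It had 4299.5 and 4560.2 in KD morulae, against 2643 and 3168 in NC morulae, a log2 fold change of 0.61 ± 0.14 (SE; limma adjusted p = 0.362). In blastocysts it had 3831 and 3819 in KD, against 3496 and 3524 in NC, a log2 fold change of 0.12 (limma adjusted p = 0.495). Both KD libraries were above both NC libraries at each stage. Rpl7 had log2 fold changes of 0.07 and 0.04 and overlapped at both stages.

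Rpl39l (mm10 chr16:10170226-10174911), known in the mouse as the form of Rpl39 enriched in male germ cells, had the lowest log2 fold change of all members in blastocysts. It had 919.8 and 1036 in KD blastocysts, against 1349.9 and 1415 in NC blastocysts, a log2 fold change of -0.50 ± 0.12 (SE; limma adjusted p = 0.128). In morulae it had 1793 and 1682 in KD, against 1786 and 1647 in NC, and the groups overlapped. Rpl39, its X-linked usual copy, had 3683 and 3546 in KD blastocysts, against 3545 and 3547 in NC blastocysts. The coding sequences of the pair, from GENCODE vM21, are shown because they tell whether reads of one can be told from the other, and capitals mark positions that differ.
Rpl39l coding: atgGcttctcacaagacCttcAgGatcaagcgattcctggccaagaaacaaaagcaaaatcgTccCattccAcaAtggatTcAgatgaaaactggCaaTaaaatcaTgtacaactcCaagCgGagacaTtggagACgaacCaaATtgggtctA
Rpl39 coding: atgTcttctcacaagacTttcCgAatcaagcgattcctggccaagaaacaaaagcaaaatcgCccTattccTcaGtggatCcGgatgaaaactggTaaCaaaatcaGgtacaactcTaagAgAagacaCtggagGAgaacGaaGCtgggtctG
They differ at 23 of 153 positions, an identity of 85.0%, and Rpl39l has no near-identical copy among the listed rows.

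Rpl10l, the autosomal paralog of X-linked Rpl10 known from mouse spermatocytes, had 1973 and 2158 in KD blastocysts, against 1438 and 1848 in NC blastocysts. Its log2 fold change was 0.34 (limma adjusted p = 0.290), and in morulae it was 0.00 with overlapping groups. The coding sequences of Rpl10l and Rpl10 are 84.7% identical. Rps27l, a paralog of Rps27 induced by p53, had 2891 and 3066 in KD blastocysts, against 3358 and 3501 in NC blastocysts, a log2 fold change of -0.20 (limma adjusted p = 0.316). In morulae it had -0.09 and overlapped. Rpl36al, a paralog of Rpl36a, had both KD libraries below NC in morulae with -0.08 (limma adjusted p = 0.851). Rpl22l1, a paralog of Rpl22, overlapped at both stages with -0.01 and -0.03, and Rpl22 had 0.01 and -0.06.

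Rps27 and Rps27rt have coding sequences that are identical over all 252 bases, so reads within them cannot be told apart. Rps27 had 1773 and 1573 in KD blastocysts, against 2280.3 and 1818 in NC blastocysts, a log2 fold change of -0.29 (limma adjusted p = 0.355). Rps27rt had 1252 and 1325 in KD blastocysts, against 1151 and 1112 in NC blastocysts, a log2 fold change of 0.19 (limma adjusted p = 0.441). The 2 rows differed in sign, and their sum had 3025 and 2899 in KD blastocysts, against 3432 and 2929.6 in NC blastocysts, a log2 fold change of -0.10. In morulae the sum had 3044 and 2652 in KD, against 2551 and 3203 in NC.

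**Figure D2:**
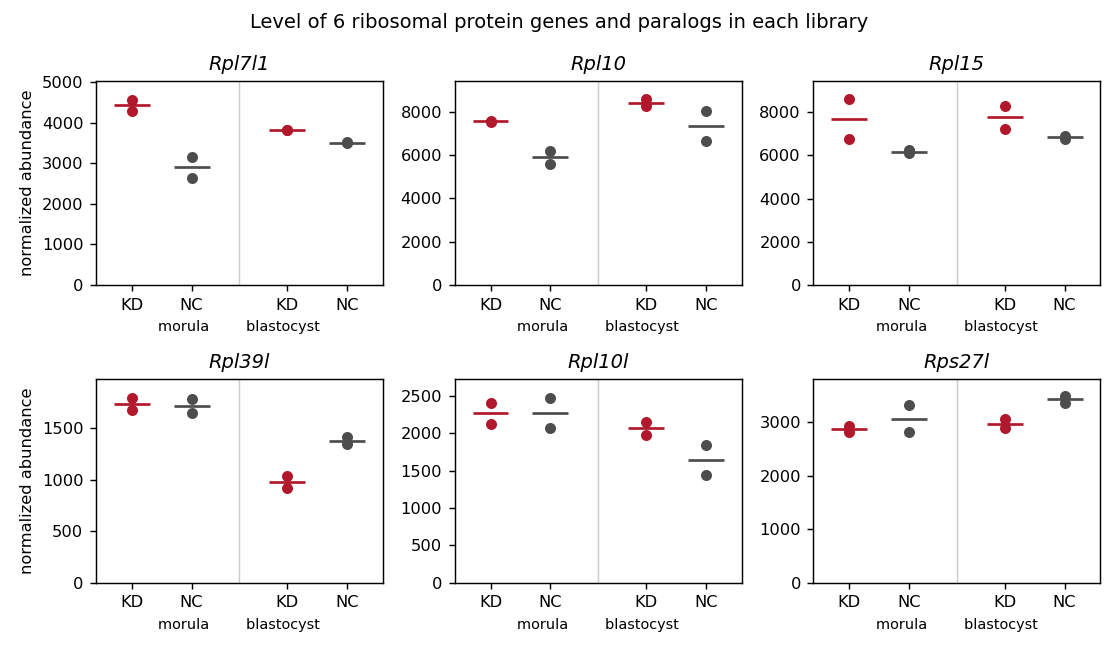
Normalized abundance of 6 members, with each point a library and each bar the mean of 2 libraries, KD left of NC at each stage and axes starting at 0. Rpl7l1 separates the groups most in morulae, with 4299.5 and 4560.2 in KD against 2643 and 3168 in NC, and Rpl39l in blastocysts, with 919.8 and 1036 in KD against 1349.9 and 1415 in NC.

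The KD change was lower in blastocysts than in morulae for 76 of 85 members, where this was so for 49.0% of the 12875 genes tested at both stages. Limma over all 8 libraries called 0.0% of those genes for this difference, and none of the members, with 5.34% of genes at an unadjusted p under 0.05. The median difference was -0.09 on the log2 scale over members and 0.01 over all genes. It was -0.10 in the large and -0.09 in the small subunit. The largest differences were those of Rpl39l, -0.52 (limma adjusted p = 0.889), and Rpl7l1, -0.49 (limma adjusted p = 0.852). Without KD replicate 1 of the morulae the count was 56 of 85 and the median -0.04, and without KD replicate 2 of the morulae 77 and -0.15. Without NC replicate 1 of the morulae they were 67 and -0.06. Between the stages, which share no library, 39 members were higher in KD at both, 16 lower at both, 25 higher in morulae and lower in blastocysts, and 5 the other way round. Spearman's rho between the fold changes at the 2 stages was 0.54 across the 85 members, as a description, since members share libraries. Across members the fold change had a rho of 0.33 in morulae and 0.26 in blastocysts with coding length, and of 0.08 and 0.12 with the mean level.

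**Figure D3:**
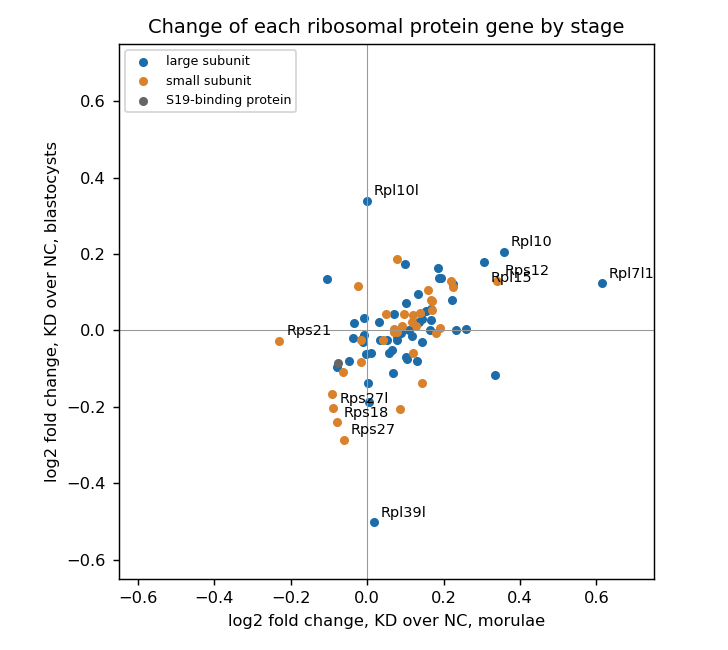
Each point is a ribosomal protein gene, with its log2 fold change of KD over NC in morulae on the horizontal and in blastocysts on the vertical axis. Most points lie within 0.3 of 0 on both axes, while Rpl7l1 lies far right at 0.61 and Rpl39l far down at -0.50.

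Ribosomal protein genes have many processed pseudogenes, and reads can be shared with them. A search of the coding sequences found 395 listed copy rows at 95% identity or more, for 72 members, with up to 32 for a single member. At both stages the row of the gene held under 50% of its family's summed abundance for 7 members, Rpl10, Rpl12, Rpl27, Rpl27a, Rpl5, Rps12 and Rps23, so levels of these rows are uncertain. For Rpl5 the row averaged 757 in morulae while Gm15500 averaged 17354. For Rps12 it was 778 while Rps12-ps3 averaged 11209. For Rpl12 it was 1359 while Gm10275 averaged 11973.

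Summing each gene with its copies, an alternative chosen after the data were seen, changed the sign of 5 members in morulae and 7 in blastocysts. In morulae these were Rpl22l1, Rpl3, Rpl5, Rps12 and Rps18, and in blastocysts Rpl14, Rpl29, Rpl7a, Rps12, Rps18, Rps7 and Rpsa. It gave 67 of 85 members higher in KD morulae with a median of 0.08, and 45 of 85 in blastocysts with a median of 0.00, and 0 members were called. The Rpl10 family had 16201 and 16365 in KD morulae, against 14168 and 13772 in NC morulae, a log2 fold change of 0.22 (limma adjusted p = 0.504), where the row alone had 0.36. In blastocysts the family had 0.06 (limma adjusted p = 0.818), where the row alone had 0.21. Rps12 had 846 and 886 in KD morulae, against 599.95 and 779 in NC morulae, a log2 fold change of 0.34 (limma adjusted p = 0.589). Its family had 11082 and 12825 in KD morulae, against 11708 and 12449 in NC morulae, a log2 fold change of -0.02, so the direction of the row turned.

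**Figure D4:**
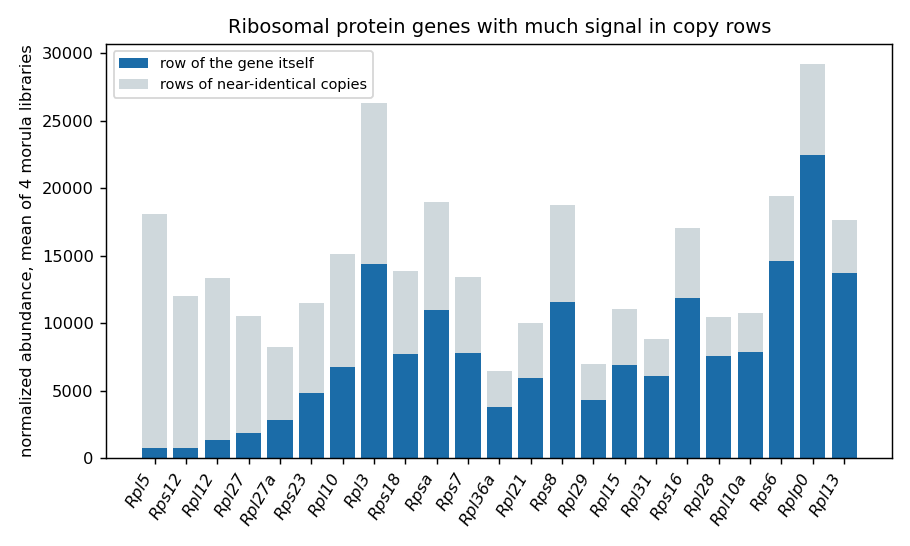
Bars show the mean normalized abundance over 4 morula libraries for the 23 members whose own row holds under 80% of its family, split into the gene's row and the rows of near-identical copies. The row of Rpl5 averages 757 and its family 18120, so almost all of that bar is copy rows.

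Other genes of ribosome supply gave no call at either stage. Rack1, a small-subunit scaffold protein outside the symbol pattern, had log2 fold changes of 0.16 in morulae and 0.04 in blastocysts, and Fau, whose product includes S30, had -0.02 and -0.08 (limma adjusted p of 0.676 or more in each case). Among 17 other mRNAs with a terminal oligopyrimidine tract, 10 were higher in KD morulae with a median of 0.03, and 7 in KD blastocysts with a median of -0.01. Eef2, the translocation factor, had 97435 and 87863 in KD morulae, against 76599 and 81487 in NC morulae, and 87743 and 82055 in KD blastocysts, against 76503 and 73034 in NC blastocysts. Its log2 fold changes were 0.23 and 0.18 (limma adjusted p = 0.519 and 0.272). Eef1b2, an exchange factor subunit for elongation, had -0.18 and -0.29 (limma adjusted p = 0.663 and 0.248), and Nap1l1, a histone chaperone, had 0.30 in morulae (limma adjusted p = 0.430). Among 12 genes that control translation of these mRNAs, 2 were higher in KD morulae and 5 in KD blastocysts, with medians of -0.08 and -0.05. Larp1, which binds the tract, had 13840.4 and 11785 in KD blastocysts, against 15336 and 14587 in NC blastocysts (limma adjusted p = 0.295). Smaller p in blastocysts were those of Eif4ebp2, with a log2 fold change of 0.29, and Rps6kb1, with -0.50 (limma adjusted p = 0.185 and 0.260).

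Among 8 chaperones of ribosomal proteins, 2 were higher in KD morulae and 1 in KD blastocysts, with medians of -0.08 and -0.23. Tsr2, known in yeast and human cells as the carrier of S26, had 1036 and 1434 in KD morulae, against 1740.1 and 2175 in NC morulae, a log2 fold change of -0.67 (limma adjusted p = 0.402). In blastocysts Tsr2 had 606 and 536 in KD, against 1084 and 1036 in NC, a log2 fold change of -0.89 (limma adjusted p = 0.0742). Its KD libraries were below its NC libraries at both stages, and it did not pass. Bccip and Grwd1, whose yeast counterparts carry L23 and L3, had -0.32 and -0.25 in blastocysts (limma adjusted p = 0.232 and 0.289). Of 7 promoter factors, 3 were higher in KD morulae and 5 in KD blastocysts. Myc, which drives ribosomal protein genes in many cells, had 124 and 241 in KD morulae, against 271 and 486 in NC morulae, and 231 and 299 in KD blastocysts, against 404 and 589 in NC blastocysts. Its log2 fold changes were -1.06 and -0.89 (limma adjusted p = 0.468 and 0.154). Mycn had 0.85 in morulae (limma adjusted p = 0.468) and Yy1 0.22 in blastocysts (limma adjusted p = 0.269).

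Among 78 mitochondrial ribosomal protein genes, 37 were higher in KD morulae with a median of -0.01, and 25 in KD blastocysts with a median of -0.06. The smallest p in blastocysts was that of Mrpl17, which had 2421 and 2278 in KD, against 3421 and 3618 in NC, a log2 fold change of -0.58 (limma adjusted p = 0.0805). In morulae it was that of Mrps12, which had 1133 and 1103 in KD, against 722 and 713 in NC, a log2 fold change of 0.64 (limma adjusted p = 0.362). Of 38 tested ribosomal protein pseudogene rows, 23 were higher in KD morulae and 15 in KD blastocysts, with medians of 0.06 and -0.08.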

How the data were processed

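RNA of 8 pools of mouse embryos was sequenced after oligo(dT) selection, with 12 to 15 PCR cycles and paired reads of 150 bases, per the labels. The authors deposited 1 table per stage, with a scaled signal for each gene, called normalized abundance here. Salmon 0.14.1 and DESeq2 were used, per the submitters' processing notes, with mm10. Tables were scaled separately, so levels are not tested between them, and depth is not given, so no counting interval was computed. Gene names come from GENCODE vM21, which matched 98.9% of IDs.

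Members and lists were chosen with earlier results of these data known. Values were tested as log2(value + 1), which understates changes of low genes, with limma 3.58.1 in R 4.3.3 (lmFit, eBayes with trend), KD minus NC, over genes with a mean of at least 10, with p adjusted after Benjamini and Hochberg and called under 0.05. The smallest p of a permutation of 2 against 2 libraries is 0.333, so none was run. The fit was tested on simulated data. Copies were found with BLAST 2.17.0 at 95% identity over at least 80% of the coding sequence. Transcript length is that of the shortest transcript with the principal coding sequence. Promoter windows are RefSeq's. Genes named are the 6 members with the smallest p per direction and stage, the 3 highest and lowest per length, stalk genes, paralogs with their usual copies and a short set of well-known members; from each list, genes among the smallest p are named. Rpl35a, Rpl14, Rpl29 and Rps7 were named after their values were seen, and Rps4l, a pseudogene in this annotation, fell outside the rule. Some results are not reported here.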

Additional observations from a re-analysis of the deposited data

How the results depend on the processing

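Of the values of named genes recomputed under the alternatives, 303 kept direction and side of the threshold, 3 passed it newly and 6 turned, and of the summary values 146 stayed and 20 moved. Replicate numbers are shared between groups, but nothing in the labels pairs the libraries, and same-numbered deviations correlated at 0.297 in morulae and 0.146 in blastocysts. With the replicate number as a block, 892 genes and 2 members (Rpl7l1, adjusted p = 0.00334, log2 fold change 0.61, and Rpl10, 0.0333, 0.36) were called in morulae, 1208 genes and 1 member (Rpl39l, 0.0252, -0.50) in blastocysts, and 1 gene for the stage difference. Without a mean-variance trend 0 genes were called at either stage. Without a filter 27 were called in blastocysts, and at a pseudocount of 0.1 the stage difference gave 2. After quantile normalization the small-subunit median in blastocysts was -0.023. Leaving out 1 library at a time, genes called ranged over 1 to 3 in blastocysts and 0 to 2 for the stage difference. The member median ranged over 0.040 to 0.16 in morulae and -0.017 to 0.035 in blastocysts, and there the large-subunit median over -0.038 to 0.042 and the small-subunit median over -0.0089 to 0.0026. Members higher in KD blastocysts ranged over 31 to 51 of 85, lowest without KD replicate 2 and highest without KD replicate 1. In morulae Rpl13a ranged over -0.27 to 0.058, Rps18 over -0.17 to 0.0085 and Rps27l over -0.21 to 0.030. With copies summed, Rps12 had -0.018 and Rps18 0.066. The cause was not tested. With 2 libraries a group, small differences are not detectable.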
